A study of Rattus norvegicus with 6 samples.

Results

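The 9 genes Egr1, Egr2, Egr3, Egr4, Nr4a1, Nr4a2, Nr4a3, Arc and Npas4, which neurons switch on within minutes of synaptic activity, were followed in rat brain after hypoxia-ischemia (HI). They were chosen by symbol from the 19382 genes of the deposited table, each symbol matched exactly 1 row, and no measured value entered the choice. RNA sequencing covered 6 libraries of brain tissue, 3 from control rats and 3 from SD rats given HI for 2.5 h at 7 days of age. The controls are labelled as control treatment and described in the series text as normal rats. The labels name no genotype, no brain region or hemisphere, no interval between insult and sampling and no age for the controls, and echinatin, the compound in the series title, appears in none of the 6 labels. Nothing in the labels states that each library came from its own animal, so p-values measure only the spread between these samples, which may be technical.

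Calcium entry through NMDA receptors and voltage-gated channels activates kinases that act on the transcription factors SRF, CREB and MEF2, which are already bound at the promoters of such genes. Transcription then starts without new protein synthesis, which gave these genes the name immediate-early genes. The EGR proteins are zinc-finger transcription factors, the NR4A proteins are orphan nuclear receptors that act without a known physiological ligand, Npas4 is a bHLH-PAS transcription factor that responds almost selectively to calcium influx in neurons, and Arc is a cytoplasmic protein that drives removal of AMPA receptors from synapses. In cortex, hippocampus and striatum they serve as standard markers of recently active neurons, and seizures, growth factors and ischemia also induce several of them.

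Promoter sequence was available in RefSeq (build GRCr8) for 6 of the 9 genes, Egr1, Egr2, Egr4, Nr4a1, Nr4a2 and Npas4. The 250 bases before the start site in that table are shown for Egr1, Egr2, Egr4 and Nr4a1, which held the most matches to the elements searched, with a stretch of Npas4, which held none. Capitals mark the SRF-binding CArG box and the CREB half-site TGACG, which reads as CGTCA when it lies on the opposite strand. In the Npas4 stretch, which ends 142 bases before the start site, capitals mark TATATAAG, a TATA-like run that was chosen by eye. The same run also lies in the Egr4 window, where it is left in lower case.
Egr1 (chr18:26736828-26737077, plus strand): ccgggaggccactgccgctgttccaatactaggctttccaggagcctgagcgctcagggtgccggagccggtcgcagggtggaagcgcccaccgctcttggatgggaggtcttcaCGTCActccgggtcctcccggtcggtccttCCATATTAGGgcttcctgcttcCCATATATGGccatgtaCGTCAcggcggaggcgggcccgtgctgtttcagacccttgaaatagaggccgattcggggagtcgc
Egr2 (chr20:21054442-21054691, minus strand): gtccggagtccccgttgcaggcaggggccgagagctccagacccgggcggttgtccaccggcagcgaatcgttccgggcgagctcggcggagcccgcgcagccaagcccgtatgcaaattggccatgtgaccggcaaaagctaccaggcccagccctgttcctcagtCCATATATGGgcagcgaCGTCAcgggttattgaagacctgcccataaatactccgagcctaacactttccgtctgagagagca
Egr4 (chr4:119607818-119608067, minus strand): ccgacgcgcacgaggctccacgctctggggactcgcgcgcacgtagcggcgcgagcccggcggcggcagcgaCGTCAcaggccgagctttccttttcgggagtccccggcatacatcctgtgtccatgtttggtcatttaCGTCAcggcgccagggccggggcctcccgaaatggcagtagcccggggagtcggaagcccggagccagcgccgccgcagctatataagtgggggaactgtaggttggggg
Nr4a1 (chr7:134259888-134260137, plus strand): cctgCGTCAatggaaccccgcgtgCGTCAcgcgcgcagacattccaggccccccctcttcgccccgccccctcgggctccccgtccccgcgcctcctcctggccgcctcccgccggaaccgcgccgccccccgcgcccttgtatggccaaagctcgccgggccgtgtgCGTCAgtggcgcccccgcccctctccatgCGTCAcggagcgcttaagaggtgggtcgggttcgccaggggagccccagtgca
Npas4 (chr1:211716244-211716352, minus strand): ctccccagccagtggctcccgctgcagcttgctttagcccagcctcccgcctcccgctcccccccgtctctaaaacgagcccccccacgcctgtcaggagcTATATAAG

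Both strands were searched over the full 250 bases. Egr1 held 2 CArG boxes and Egr2 held 1, while the windows of Egr4, Nr4a1, Nr4a2 and Npas4 held 0, and 1.50% of all 33469 promoter windows held at least 1. The half-site TGACG occurred 4 times in Nr4a1, 2 times in Egr1 and in Egr4, 1 time in Egr2 and in Nr4a2 and 0 times in Npas4, against 18.2% of all windows with at least 1. The half-site is contained in the full element TGACGTCA, which none of the 6 windows held and 1.59% of all windows did. The NR4A element AAAGGTCA was in none of the 6 windows (1.24% of all), and the EGR element GCGNGGGCG was in 1, that of Nr4a1 (4.29% of all). These matches describe letters in a window and are not measured binding sites.

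After HI the 9 genes did not move as a block. Egr3 and Nr4a2 fell, to 0.329 and 0.231 of the control level, Npas4 stood above every control in every HI library at a mean 4.29-fold level that did not pass the test, and Egr1, Egr2, Egr4, Nr4a1, Nr4a3 and Arc overlapped between the groups. By the quasi-likelihood test of edgeR, fitted on all 14959 genes with enough reads and called at a Benjamini-Hochberg adjusted p below 0.05, 2 of 9 were lower in HI and 0 were higher, and 4 had an unadjusted p below 0.05, as did 36.5% of all tested genes. Over all tested genes 13.9% were called, 7.04% lower and 6.83% higher. That balance depended on the scaling, with 1053 lower and 1021 higher by TMM, 804 and 1446 with upper-quartile factors and 730 and 2161 with total counts. The groups did not overlap for 3 of the 9 genes, against 42.3% of all tested genes. The median log2 fold change of the 9 genes was -0.43, beside 0.04 over all tested genes. All 9 passed the filter on low reads, and their estimated counts were whole numbers in every library. Whole counts do not show that no reads were shared with another gene. In bulk tissue, fewer cells of a type and less RNA per cell cannot be told apart.

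**Figure D1:**
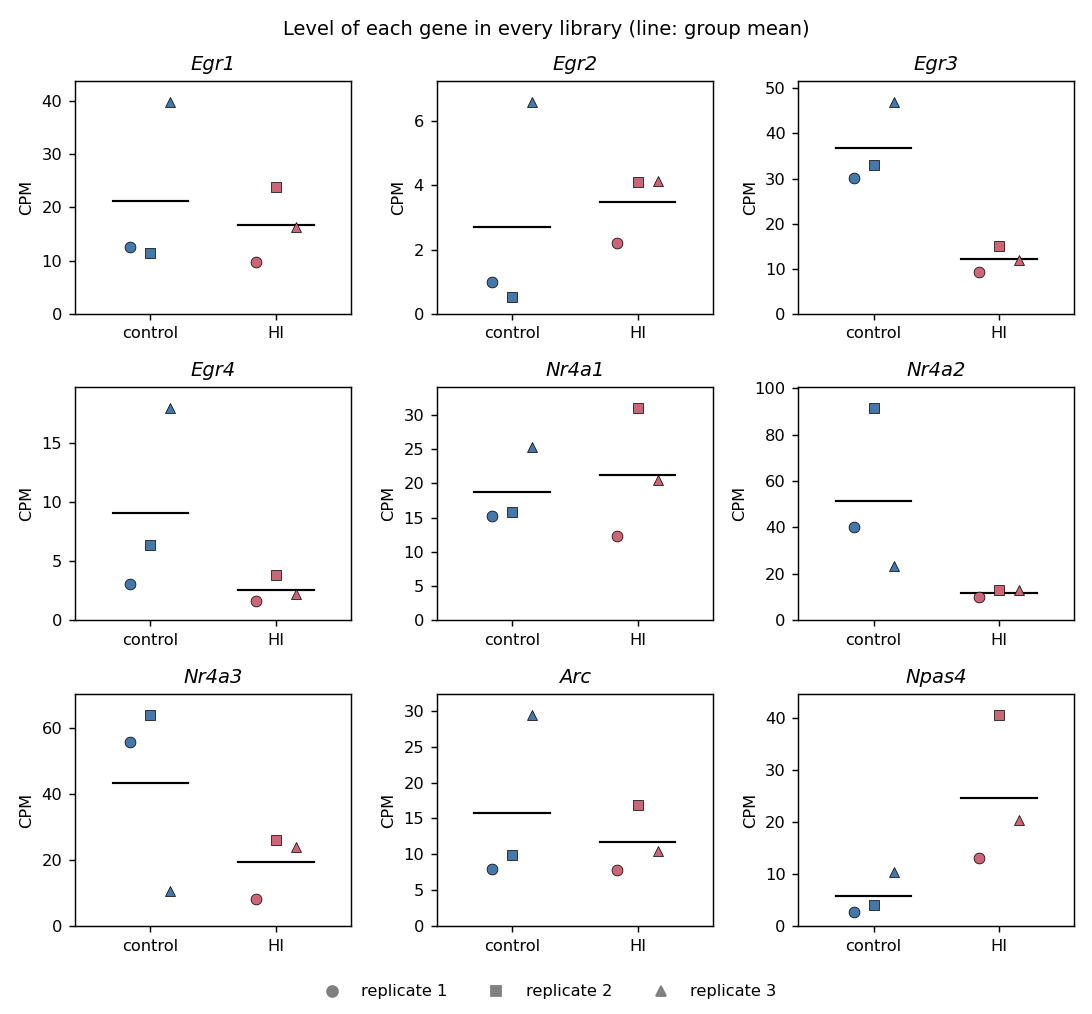
Level of each gene in CPM (reads scaled to library size, vertical axes starting at 0) in the 3 control (blue) and 3 HI (red) libraries, marker shape giving the replicate and the line the group mean. Egr3 and Nr4a2 are lower in all 3 HI libraries, Npas4 is higher in all 3, and control 3 is the highest control for 7 of the 9 genes and the lowest for Nr4a2 and Nr4a3.

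Library totals ran from 13922663 to 14927469 reads, and a gene with no read in a library could still be present at up to 0.182 to 0.227 CPM (3 reads, counting error only). Markers of the brain regions differed within the groups. Summed over 12 excitatory neuron markers, the level was 2379 and 2576 CPM in controls 1 and 2, 1288 CPM in control 3 and 420 to 685 CPM in HI. Summed over 8 striatal markers, control 3 held 1503 CPM, the other controls 200 and 304 CPM and the HI libraries 215 to 375 CPM. The general neuronal markers summed to 7662 to 9541 CPM in controls and 3116 to 5763 CPM in HI, and the 8 choroid plexus markers to 29.8, 2309 and 32.9 CPM in controls 1 to 3 and 223, 8393 and 15695 CPM in HI 1 to 3. Reads of the Y-linked genes Eif2s3y and Kdm5d were found in only 3 libraries, control 3, HI 2 and HI 3. Control 3 thus stood apart from the other controls, and the fold change of each of the 9 genes is given with and without it. The part of these differences in the results below was not tested.

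Egr3, which acts in memory and in muscle spindle development, was at 30.1, 33.1 and 46.9 CPM in controls 1 to 3 and at 9.23, 15.1 and 11.9 CPM in HI 1 to 3. The highest HI library lay below the lowest control. Group means (± SD, 3 libraries each) were 36.7 ± 8.98 CPM in control and 12.1 ± 2.94 CPM in HI. This is a log2 fold change of -1.60 ± 0.25 (SE, edgeR adjusted p = 0.0227). Without control 3 the log2 fold change was -1.42 (edgeR adjusted p = 0.0292). The call was lost without control 1, control 2, HI 2 or HI 3, with adjusted p of 0.0850, 0.0924, 0.0810 and 0.0518 and log2 fold changes between -1.79 and -1.59. Over all tested genes those fits called 0, 1, 0 and 644. By limma-voom and by DESeq2 Egr3 was also called, and it was called in 12 of 16 alternative settings.

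Nr4a2, also called Nurr1, maintains midbrain dopamine neurons and is also expressed in subplate, claustrum and deep cortical layers. Its level was 39.9, 91.2 and 23.2 CPM in controls 1 to 3 and 9.96, 12.8 and 12.8 CPM in HI 1 to 3. The controls spread widely and the HI libraries were close together, with no overlap. The mean went from 51.4 ± 35.4 to 11.9 ± 1.65 CPM, a log2 fold change of -2.12 ± 0.49 (SE, edgeR adjusted p = 0.0398). The fall was called in 9 of 16 alternative settings, including the fit without control 3 (-2.50, edgeR adjusted p = 0.0253), but not by limma-voom (adjusted p = 0.0754) and not without any 1 of the other 5 libraries (edgeR adjusted p from 0.0619 to 0.113). Over all tested genes 0, 1 and 0 were called without control 1, control 2 and HI 2. The fits without HI 3 and without HI 1 called 644 and 3689. Among 6 markers of subplate and claustrum the sum was 250, 336 and 311 CPM in controls and 184, 201 and 118 CPM in HI. Synpr alone stood at 146, 219 and 235 CPM in controls and 128, 130 and 63.7 CPM in HI. By edgeR 0 of the 6 were called, and Moxd1 went the other way, with means of 4.74 and 8.10 CPM. Cplx3, a subplate marker named after its values were seen, stood at 21.0, 32.8 and 3.74 CPM in controls and 2.27, 6.36 and 4.60 CPM in HI. The 6 midbrain dopamine markers summed to 2.43 to 4.64 CPM in controls and 6.62 to 18.1 CPM in HI, the opposite direction to Nr4a2. Only 2 of them had enough reads to test, and neither passed: Slc18a2, with means of 1.83 and 6.72 CPM (edgeR adjusted p = 0.0632), and Th, with 1.37 and 3.42 CPM (edgeR adjusted p = 0.222). The dopamine transporter Slc6a3 was at 0.39 CPM or less in every library. The part of these cells in the Nr4a2 level was not tested.

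Npas4 organises inhibitory synapses onto active neurons and binds DNA together with the partner Arnt2. It was at 2.73, 4.05 and 10.5 CPM in controls 1 to 3 and at 13.1, 40.7 and 20.4 CPM in HI 1 to 3, from 36, 55, 140, 196, 633 and 337 reads. Every HI library lay above every control, although HI 1 exceeded control 3 only narrowly. The mean went from 5.75 ± 4.15 to 24.7 ± 14.3 CPM, a log2 fold change of 2.10 ± 0.62 (SE) that did not pass (edgeR adjusted p = 0.0641). It passed in 5 of 16 alternative settings, among them DESeq2 (adjusted p = 0.00349), total-count scaling (edgeR adjusted p = 0.0491), the fit without control 3 (2.83, edgeR adjusted p = 0.0417) and the fit without HI 1 (2.40, edgeR adjusted p = 0.0423). Over all 16 the adjusted p ranged to 0.178 and the log2 fold change from 1.54 to 3.13. Fos, the immediate-early gene most used beside Npas4 and named here after its values were seen, was at 4.01, 1.77 and 8.54 CPM in controls and 12.3, 32.3 and 28.5 CPM in HI, likewise without overlap and without passing (log2 fold change 2.35, edgeR adjusted p = 0.0510).

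Egr1, also called Zif268 and the most widely used EGR activity marker, was at 12.6, 11.5 and 39.8 CPM in controls 1 to 3 and at 9.76, 23.9 and 16.4 CPM in HI 1 to 3. Control 3 exceeded every HI library, while HI 2 and HI 3 exceeded the other controls. The log2 fold change was -0.35 ± 0.56 (SE, edgeR adjusted p = 0.677) with all libraries and 0.43 ± 0.38 (edgeR adjusted p = 0.453) without control 3, so its sign rested on that library. Arc showed the same arrangement, with 7.95, 9.94 and 29.4 CPM in controls and 7.82, 16.9 and 10.4 CPM in HI. Its log2 fold change was -0.43 ± 0.55 (SE, edgeR adjusted p = 0.604), and 0.35 without control 3 (edgeR adjusted p = 0.525). A long non-coding RNA model overlaps Arc, and another overlaps Nr4a3, in the GRCr8 gene table. As the strand setting of the counting is not given in the sources used here, reads of the 2 models cannot be separated from those of Arc and Nr4a3.

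Egr2, also called Krox20, is a master regulator of Schwann cell myelination that neurons and activated macrophages also express. It was the member with the fewest reads, 13, 7 and 88 in controls 1 to 3 and 33, 64 and 68 in HI 1 to 3, or 0.984, 0.515 and 6.59 CPM and 2.21, 4.11 and 4.12 CPM. Control 3 stood above every HI library, and controls 1 and 2 stood below every one. The log2 fold change was 0.37 ± 0.89 (SE, edgeR adjusted p = 0.788), and it was 2.17 ± 0.51 (SE, edgeR adjusted p = 0.0522) without control 3. The 10 microglia and macrophage markers summed to 103 to 157 CPM in controls and 275 to 468 CPM in HI. The part of those cells in the Egr2 level was not tested.

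Egr4, the EGR protein that lacks a binding region for the NAB corepressors, was at 3.03, 6.41 and 18.0 CPM in controls 1 to 3 and at 1.60, 3.79 and 2.18 CPM in HI 1 to 3. HI 2 overlapped control 1. The log2 fold change of -1.85 ± 0.69 (SE) did not pass (edgeR adjusted p = 0.107, unadjusted p = 0.0329), although DESeq2 called it (adjusted p = 0.0274). Without control 3 it was -0.94 (edgeR adjusted p = 0.246).

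Among the orphan receptors, Nr4a1, also called Nur77, was at 15.2, 15.8 and 25.3 CPM in controls 1 to 3 and at 12.2, 31.0 and 20.5 CPM in HI 1 to 3. The groups overlapped throughout, with a log2 fold change of 0.18 ± 0.37 (SE, edgeR adjusted p = 0.754), and 0.41 (edgeR adjusted p = 0.480) without control 3. Nr4a3, also called NOR1, was at 55.7, 64.1 and 10.6 CPM in controls and 8.29, 26.1 and 24.0 CPM in HI. Controls 1 and 2 lay above every HI library, and control 3 lay near the lowest. The log2 fold change of Nr4a3 was -1.16 ± 0.70 (SE, edgeR adjusted p = 0.272), and -1.66 (edgeR adjusted p = 0.0719) without control 3.

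**Figure D2:**
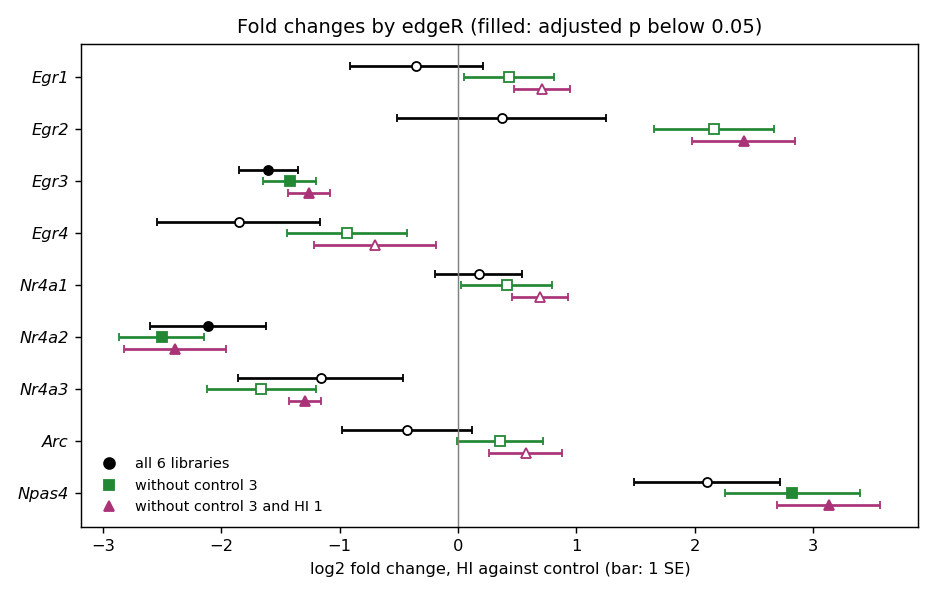
Log2 fold change of HI against control by edgeR for each gene, with bars of 1 SE, from all 6 libraries (black), without control 3 (green) and without control 3 and HI 1 (purple), filled where the adjusted p was below 0.05. Egr3 and Nr4a2 stay below 0 and Npas4 above 0 in the 3 fits, while Egr1 and Arc change sign without control 3. In the purple fit only the HI libraries had Y-linked reads.

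As control 3 and HI 1 stood apart in regional markers, and HI 1 had the lowest Slc17a7 level, 2.54 CPM against 51.1 and 63.3 CPM in the other HI libraries, a fit without both was added after the data were seen, with 2 libraries per group. There 5 of 9 genes were called, against 25.5% of all 15194 tested genes (1941 higher and 1938 lower). Npas4 (log2 fold change 3.13) and Egr2 (2.41) were higher and Egr3 (-1.26), Nr4a2 (-2.39) and Nr4a3 (-1.29) lower (edgeR adjusted p from 0.0139 to 0.0258). Controls 1 and 2 had no Y-linked reads and HI 2 and HI 3 had them. In this fit HI and the presence of Y-linked reads therefore cannot be told apart. Within the libraries that had Y-linked reads and within those that had none, the difference of mean log2 CPM was -1.80 and -1.77 for Egr3, -0.86 and -2.59 for Nr4a2 and 1.46 and 1.97 for Npas4. Nr4a3 differed by 1.23 with such reads and by -2.84 without them, and Egr2 by -0.68 and 1.58. Each of these within-set differences has a single library on 1 side, and they were not tested.

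Within each group most of the 9 genes went up and down together from library to library. HI 1 was the lowest HI library for 9 of 9 genes, as it was for 42.1% of all tested genes. HI 2 was the highest for 7 of 9, against 22.3% of all tested genes, and for Egr2 and Nr4a2 HI 3 exceeded HI 2 by less than 1%. Control 3 was the highest control for Egr1, Egr2, Egr3, Egr4, Nr4a1, Arc and Npas4, against 39.7% of all tested genes, and it was the lowest for Nr4a2 and Nr4a3. After subtraction of the group means, the 21 pairs among those 7 genes had Pearson correlations of log2 CPM from 0.68 to 0.99 (median 0.93) over the 6 libraries. Npas4 and Egr3, whose mean levels differed between the groups in opposite directions, had a within-group correlation of 0.99, and one of -0.59 when the group means were left in. The 14 pairs that join the 7 genes with Nr4a2 or Nr4a3 had values from -0.81 to -0.01, and Nr4a2 with Nr4a3 had 0.80. Without control 3 the 21 pairs ranged from 0.01 to 0.998 (median 0.90) over 5 libraries, and 13 of the 14 other pairs were above 0, so the separation of Nr4a2 and Nr4a3 from the rest came from control 3. The split into 7 and 2 genes was made after the values were seen, and the points share library, depth and tissue composition. No within-group correlations were computed for pairs of other genes, so these values are description only.

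**Figure D3:**
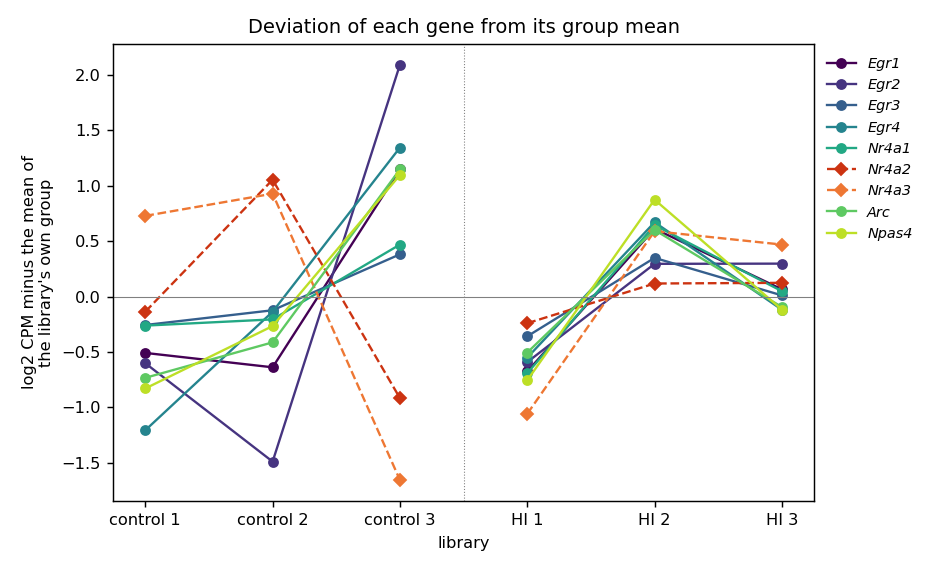
Log2 CPM of each gene minus the mean of its own group, by library, where lines only join the points of 1 gene (dashed for Nr4a2 and Nr4a3). Control 3 lies above 0 for 7 genes and below 0 for Nr4a2 and Nr4a3, HI 1 lies below 0 for all 9, and HI 2 lies above 0 for all 9.

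Dividing the reads of 1 gene by those of another in the same library removes depth and scaling from the comparison. The ratio of Npas4 to Arc was 0.343, 0.407 and 0.356 in controls 1 to 3 and 1.68, 2.41 and 1.96 in HI 1 to 3. Its values were close together in the controls, control 3 included, and every HI library lay far above them. On the log2 scale the mean ratio went from -1.44 ± 0.13 to 0.99 ± 0.26 (SD, n = 3 per group, exact permutation test, two-sided, p = 0.10, the smallest that 3 against 3 can give, and 0.212 adjusted over 36 pairs). The ratio of Npas4 to Egr1 went from 0.217, 0.353 and 0.264 to 1.34, 1.70 and 1.25, and the ratio of Npas4 to Egr4 from 0.900, 0.632 and 0.583 to 8.17, 10.7 and 9.36. Npas4 was higher relative to 6 of the other 8 genes in every HI library than in any control, and overlapped for Egr2 and Nr4a3. The 8 mean differences lay between 1.02 and 4.08 on the log2 scale. Read ratios of genes of different length compare libraries and do not say which transcript was more abundant.

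Egr3 and Egr4 were each lower in HI relative to Egr1, Egr2, Nr4a1, Arc and Npas4, without overlap, and overlapped relative to Nr4a2 and Nr4a3. Egr3 to Nr4a1 was 1.98, 2.09 and 1.85 in controls and 0.754, 0.488 and 0.583 in HI, and Egr4 to Arc was 0.381, 0.644 and 0.611 in controls and 0.205, 0.224 and 0.209 in HI. Neither ratio overlapped between the groups. Egr3 to Egr4 and Egr1 to Arc did overlap, with mean log2 differences of -0.03 and 0.06. Of the 36 pairs 17 did not overlap between the groups, and in 7 of these, 5 of them with Npas4, the gap between the groups was wider than the widest range within a group. Of all single tested genes 42.3% did not overlap. No share was computed for ratios of other genes, so these counts and that of the Npas4 ratios above are description only. The pairs share genes and are not independent, and those described were picked after their values were seen.

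**Figure D4:**
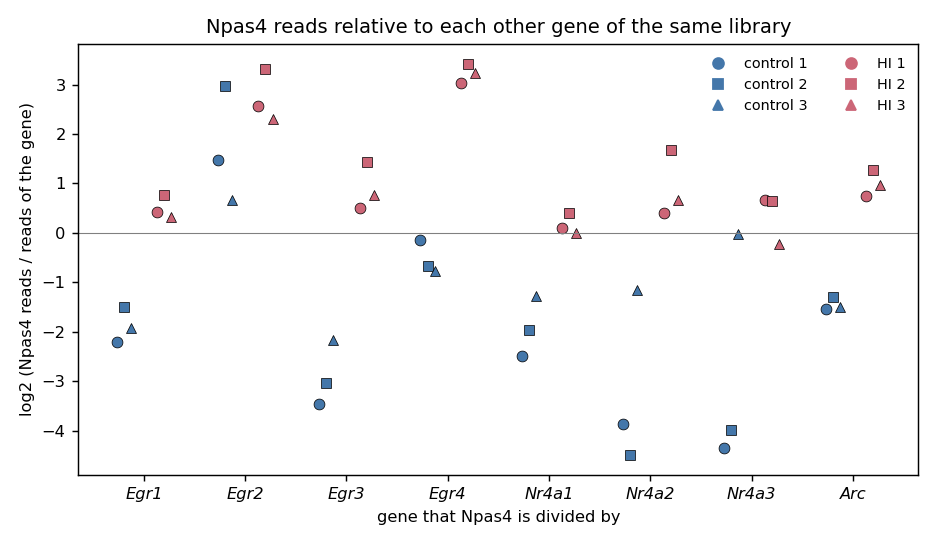
Log2 ratio of Npas4 reads to the reads of each of the other 8 genes in the same library, for 3 control (blue) and 3 HI (red) libraries, marker shape giving the replicate. The HI libraries lie above the controls for 6 genes, most tightly for Arc and Egr4, and overlap for Egr2 and Nr4a3.

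Genes around the 9 were described from 4 lists, to be read beside the 13.9% of all tested genes that edgeR called. Among 20 other rapidly induced genes 5 rose and 0 fell by edgeR, and the median log2 fold change was 0.98. An unadjusted p below 0.05, in either direction, was found for 14 (36.5% of all tested genes). The HI libraries lay above every control for 10 of the 20 and below for 1, while 42.3% of all tested genes did not overlap. Cyr61, a matricellular protein and SRF target, went from 0.971 ± 0.146 to 10.6 ± 5.68 CPM (edgeR adjusted p = 0.0226), Zfp36, which destabilises inflammatory mRNAs, from 5.46 ± 0.71 to 19.7 ± 10.1 CPM (edgeR adjusted p = 0.0398), Dusp1, a MAP kinase phosphatase, from 9.11 ± 1.53 to 17.5 ± 3.75 CPM (edgeR adjusted p = 0.0427) and Btg2, an antiproliferative gene, from 12.6 ± 1.19 to 31.0 ± 13.7 CPM (edgeR adjusted p = 0.0448). The fifth was Klf4. HI 1 was the lowest HI library for 18 of the 20, as for the 9 genes. Endothelial and mural markers, from cells known to express several of these genes, were lowest in HI 1 as well for 10 of 10, with sums of 206 to 276 CPM in controls and 289, 562 and 774 CPM in HI 1 to 3. This was not particular to them. HI 1 was also lowest for 8 of 8 choroid plexus and 8 of 10 microglia and macrophage markers. The share was 42.1% of all tested genes, and 0 of 10 general neuronal and 0 of 8 striatal markers. The part of any of these cells in the list was not tested. Leaving out control 1, control 2 or HI 2 ended all calls in each of the 4 lists, as it did for the 9 genes. Over all tested genes these fits called 0, 1 and 0, so the loss was not particular to the lists. Without control 3 the rapid genes called went from 5 to 3, the later genes stayed at 4, the upstream regulators went from 10 to 9 and the partners stayed at 1.

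Of 18 later-induced genes of neuronal activity 1 rose and 3 fell by edgeR, and the median log2 fold change was 0.02. An unadjusted p below 0.05 was found for 6 of the 18, beside 36.5% of all tested genes. Homer1, a postsynaptic scaffold, went from 94.7 ± 15.2 to 41.5 ± 2.29 CPM (edgeR adjusted p = 0.0197), Inhba, an activin subunit, from 17.4 ± 6.55 to 3.03 ± 1.24 CPM (edgeR adjusted p = 0.0249), and Plk2, a kinase of synaptic scaling, from 222 ± 77.2 to 99.9 ± 9.60 CPM (edgeR adjusted p = 0.0414). Scg2, a granin of dense-core vesicles, rose from 156 ± 26.4 to 346 ± 122 CPM (edgeR adjusted p = 0.0398).

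Of 24 genes of the signalling path to these promoters 0 rose and 10 fell by edgeR, 19 had an unadjusted p below 0.05, beside the same 36.5%, and the median log2 fold change was -0.51. The HI libraries lay below every control for 17 of the 24 and above every control for 2, while 42.3% of all tested genes did not overlap. With upper-quartile factors 1 rose and 8 fell, and with total counts 2 rose and 6 fell. The calcium-dependent kinases Camk2a and Camk4 fell to 0.315 and 0.240 of the control level, the transcription factor Mef2a to 0.482 and the NMDA receptor subunit Grin2a to 0.273 (edgeR adjusted p from 0.0196 to 0.0219). Of the other factors that act at these promoters, Mef2c fell to 0.107 and Mef2d to 0.624 of the control level (edgeR adjusted p = 0.0243 and 0.0327). Mef2c was at 1367, 1691 and 369 CPM in controls 1 to 3, so control 3 was the lowest, and at 104 to 133 CPM in HI. Creb1 (log2 fold change -0.27, edgeR adjusted p = 0.132), Srf (log2 fold change 0.01), Elk1 (-0.07) and Elk4 (0.04) did not pass. All 6 were picked out with their values in view. General neuronal markers moved in the same direction, with 3 of 10 lower and 0 higher, and the part of neuron number was not tested.

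Among 14 partners and effectors 1 rose and 0 fell by edgeR, 3 had an unadjusted p below 0.05, a share below the 36.5% of all tested genes, and the median log2 fold change was -0.10. Rxra, a retinoid receptor that pairs with NR4A proteins, rose from 5.0 ± 0.61 to 14.1 ± 3.0 CPM (edgeR adjusted p = 0.0219). Its relative Rxrb, the ubiquitin ligase Rnf216, which degrades Arc, and the AMPA receptor subunit Gria2 did not pass, with log2 fold changes of -0.34, 0.32 and -0.53 (edgeR adjusted p = 0.0586, 0.0682 and 0.149). The Npas4 partner Arnt2 and the EGR corepressor Nab2, itself an EGR target, also failed to pass (log2 fold changes -0.37 and -0.12). Nab2 stood at 21.4, 22.6 and 42.6 CPM in controls and 14.1, 37.7 and 28.1 CPM in HI, with control 3 highest and HI 1 lowest as for Egr1. Both were named after their values were seen.

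**Figure D5:**
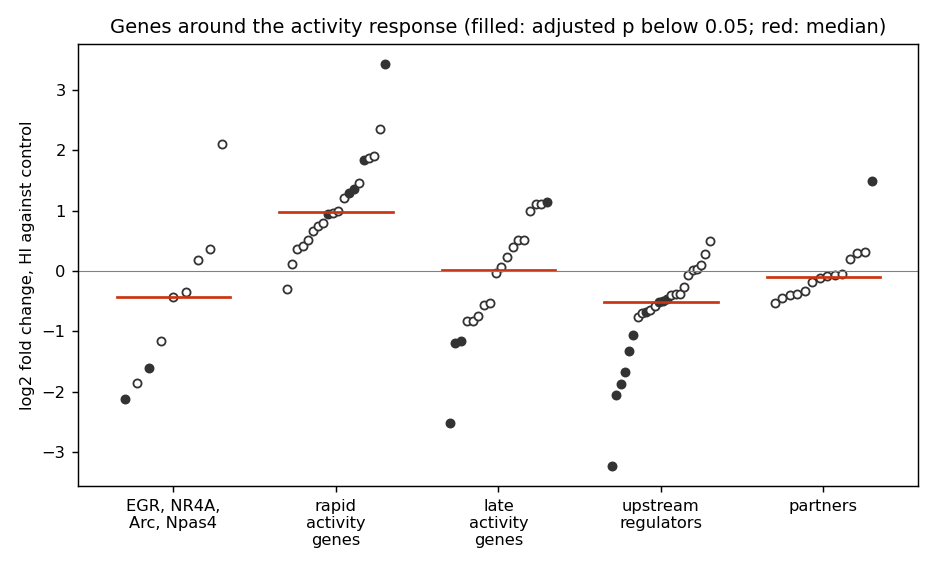
Log2 fold change of HI against control for each tested gene of the 9 and of 4 lists, sorted within a list, filled where the edgeR adjusted p was below 0.05, with the list median in red. The rapid genes have a median of 0.98 and the upstream regulators one of -0.51, while the 9 genes spread from -2.12 to 2.10.

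Beyond the 9 genes, those whose log2 CPM followed their mean standardized profile most closely over the 6 libraries included Grina, Sox10, Synj2 and Rps6kb2, with Pearson r from 0.98 to 0.99. Sox10, for example, was at 45.7, 53.4 and 67.6 CPM in controls and 39.1, 59.6 and 47.3 CPM in HI. None of these 4 passed the test. They come from the top of 14959 genes compared over 6 points and are given as a description.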

How the data were processed

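Per the labels' protocols, TRIzol was used to extract rat brain RNA and a SMARTER mRNA-Seq kit to build the libraries. The submitters' processing notes name the assembly Rnor 6.0 and the tools StringTie 2.2.1, HISAT2 2.1.0 and SAMtools 1.10. How reads were counted, with which annotation and strand setting, and how shared reads were divided is not given in those sources. The authors deposited unscaled estimated counts per gene, of which 8.87% were not whole (tolerance 1e-09).

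Counts were rounded, filtered with filterByExpr (minimum count 10) and scaled by TMM, and HI was compared with control in R 4.3.3 with edgeR 4.0.16 and its quasi-likelihood F test over 14959 genes, with group as the only term. SE were derived from the F statistic. Levels are CPM computed with TMM-scaled library sizes. Alternatives included DESeq2 1.42.0, limma-voom (limma 3.58.1), other scalings and filters, and leaving out each library. The edgeR script was tested on simulated data. Of the list genes 5 were found under older symbols and 2 had no row. Named beside the 9 genes are the 4 members of each list with the smallest p and the 5 genes most alike in profile, 1 of which is not reported here. Other genes, Klf4, Fos, Srf, Elk1, Elk4, Mef2c, Mef2d, Creb1, Arnt2, Nab2 and single cell type markers, were named outside that rule after their values were seen. Genes and lists were chosen with earlier results of these data known.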

Additional observations from a re-analysis of the deposited data

How the results depend on the processing

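Over the alternatives the signs of Egr3, Egr4, Nr4a2, Nr4a3 and Npas4 were the same in 16 of 16. Those of genes that were not called changed in a few. Without control 3 the log2 fold change of Egr1 became 0.43 and that of Arc 0.35, and without control 3 and HI 1 they became 0.71 and 0.57. Leaving out 1 library at a time, the range was -0.70 to 0.43 for Egr1, -0.15 to 2.17 for Egr2, -0.20 to 0.45 for Nr4a1 and -0.79 to 0.35 for Arc.

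The number of the 9 genes called was 4 with DESeq2, 1 with limma-voom and 5 without control 3 and HI 1, a setting chosen after seeing the data. Leaving out 1 library it ranged from 0 to 3, and over all genes from 0 to 3689. All genes called were 4200 with DESeq2, 1371 with limma-voom, 4366 at a threshold of 0.1 and 3879 without control 3 and HI 1. The rapid genes called were 8 with total counts, 9 with DESeq2, 0 with limma-voom, 3 with no filter, 9 at 0.1, 13 without control 3 and HI 1, and 0 to 12 leaving out 1 library. The later genes called ranged from 0 to 4 and the upstream regulators from 0 to 15 leaving out 1 library. Partners called were 2 with upper-quartile factors, 2 with total counts, 3 with DESeq2, 3 at 0.1, 2 without control 3 and HI 1, and 0 to 3 leaving out 1 library. Upper-quartile and total-count scaling moved the median of all genes from 0.04 to 0.14 and 0.23 on the log2 scale. The causes were not tested.

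With the replicate number as a block, 1 of the 9 genes was called, Egr3, and 2 rapid genes, and Nr4a2 had an edgeR adjusted p of 0.0580. Same-numbered libraries had correlations of deviations of 0.24, 0.07 and -0.15. HI 1 and HI 2 correlated best with the control of their own number, and HI 3 with control 2 (0.32). Beyond the number the labels give no pairing, and so few libraries cannot show whether there was one.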
